A study of Oryctolagus cuniculus with 134 samples.

Results

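The mitochondrial respiratory chain was followed through the nuclear genes whose symbols name its subunits. The genes were taken by name alone, as those whose symbol begins with NDUFA, NDUFB, NDUFC, NDUFS, NDUFV, UQCR, ATP5 or COX4 to COX8, or is SDHA, SDHB, SDHC or SDHD. This rule found 42 of the 29587 genes in the deposited tables. They comprise 19 subunits and 5 assembly factors of complex I, 2 subunits of complex II, 2 of complex III, 7 of complex IV and 6 of complex V, and NDUFA4L2, a low-oxygen relative of the complex IV subunit NDUFA4. COX6A2, COX6B1, COX6B2, COX7A2, COX7A2L, COX8B, NDUFA4, ATP5MC2, ATP5IF1, SDHA and SDHD had no row under these symbols and were not analysed here.

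Complexes I and II pass electrons from NADH and succinate to ubiquinone, complex III passes them to cytochrome c, and complex IV passes them to oxygen. Complexes I, III and IV pump protons across the inner mitochondrial membrane, and complex V, the ATP synthase, uses the gradient to make ATP. A small set of subunits is encoded in mitochondrial DNA and all others, including the 42 chosen by name, in the nucleus. Heart muscle cells are packed with mitochondria, and some complex IV subunits exist in a muscle form and a ubiquitous form.

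RNA had been sequenced from the proximal aorta and all 4 heart valves (aortic, mitral, pulmonary and tricuspid) of 27 male New Zealand White rabbits. The rabbits were 12 weeks of age at the start and were followed for 16 weeks. Control rabbits (Ctrl) ate standard chow, without vitamin D2 and without irradiation. CHT rabbits ate a diet with 0.3% cholesterol and Lard rabbits a diet with 5% lard, and IR/CHT rabbits ate the 0.3% cholesterol diet and received 24 Gy of X-rays to the heart in 3 fractions of 8 Gy after 8 weeks of diet. For rabbits irradiated on chow, the study's methods place the focus of the beam on the aortic valve and thoracic aorta. They give no dose for each valve, so that dose and response cannot be told apart between tissues of IR/CHT rabbits. CHT, Lard and IR/CHT rabbits all received vitamin D2 in their drinking water, 25000 U per day for 15 days, so that the diets and vitamin D2 cannot be told apart in comparisons with Ctrl. Each tissue had 7 Ctrl, 6 CHT, 7 Lard and 7 IR/CHT libraries, apart from 6 Ctrl libraries in the mitral valve, and each library of a tissue came from a different rabbit. The deposited counts were divided into plate 1 and plate 2, and the labels do not say which step the plates mark. Plate 2 held every aorta library, and plate 1 held every aortic and mitral valve library of CHT rabbits. The rabbit numbers of Ctrl, CHT and IR/CHT begin differently, and the labels do not say what the numbers mark.

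Libraries held 13564979 to 50577676 counts, with a median of 18235577. Levels are given as CPM, the counts of a gene scaled to a common library size after TMM normalization, which are comparable between libraries but not between genes, since they are not divided by gene length. Levels in Ctrl rabbits across tissues were scaled over all libraries together, and levels by treatment within each tissue, so that values of the same libraries can differ slightly between the 2 scales. A gene was called in a comparison when edgeR's quasi-likelihood test gave it a fold over 1.5 and a p-value, adjusted by the Benjamini-Hochberg method, under 0.05, and the share of all tested genes that was called is given as the background. Some libraries stood apart. In 5 libraries the share of counts on the 13 protein-coding genes of mitochondrial DNA was under 0.2 of that in the same rabbit's aorta, at 0.0373% to 0.101% of counts, against 0.155% to 3.55% in the others. They were 3 of 7 Ctrl libraries (L150, L166 and L261) and 1 CHT library (L151) of the aortic valve, and 1 Ctrl library of the tricuspid valve (L168). They are called the low libraries below, and results that rest on them are given with and without them. In 17 libraries the expression profile was nearest to the mean of another tissue, 6 of them aortic valve and 5 mitral valve libraries. L168 and 1 Lard library of the tricuspid valve (L272) were among them.

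The tissues also held heart muscle. A heart muscle score, the mean log2 CPM of the contractile heart muscle genes (such as MYH6, MYH7, TNNT2 and TNNI3) that passed the filter, was taken as a measure of it, and gives each gene the same weight whatever its level. In Ctrl rabbits, scaled over all libraries, it averaged 2.03 ± 0.52 (SD, n = 7) in the aorta, 4.92 ± 1.76 (n = 7) in the aortic valve, 5.26 ± 1.26 (n = 6) in the mitral valve, 3.35 ± 2.399 (n = 7) in the pulmonary valve and 8.601 ± 1.72 (n = 7) in the tricuspid valve. The score moved with treatment in the aortic valve, where it averaged 4.95 ± 1.77 in Ctrl (n = 7) on the scale of that tissue, against 1.401 ± 1.34 in CHT (n = 6), 1.84 ± 1.003 in Lard (n = 7) and 1.63 ± 1.04 in IR/CHT (n = 7). In the pulmonary valve it averaged 3.43 in Ctrl, with a range of 0.99 to 6.69, and -0.04 in CHT, with a range of -0.63 to 0.80 that did not overlap. Each treatment comparison was therefore also fitted with the score as a covariate, which gives the difference at equal heart muscle score. In whole tissue, fewer cells of a type and less RNA per cell cannot be told apart.

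On chow, the respiratory chain genes as a sum were highest in the tricuspid valve, and the ranges of the aortic, mitral and pulmonary valves overlapped. Summed over the 42 genes, the Ctrl libraries of the aorta held 2500.1, 2770.4 and 3055 CPM (lowest, median, highest). Those of the aortic valve held 1058, 1720 and 2471 CPM, those of the mitral valve 1694, 1917 and 2206 CPM and those of the pulmonary valve 2020.4, 2088 and 2607 CPM. The tricuspid valve had 1472, 4224 and 7472 CPM. The lowest tricuspid library was L168, and the other 6 lay between 3566 and 7472 CPM, above every library of the other tissues. The 3 low libraries of the aortic valve lay between 1058 and 1473 CPM and the other 4 between 1720 and 2471 CPM, so that the place of the aortic valve below the mitral valve rests on them.

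**Figure D1:**
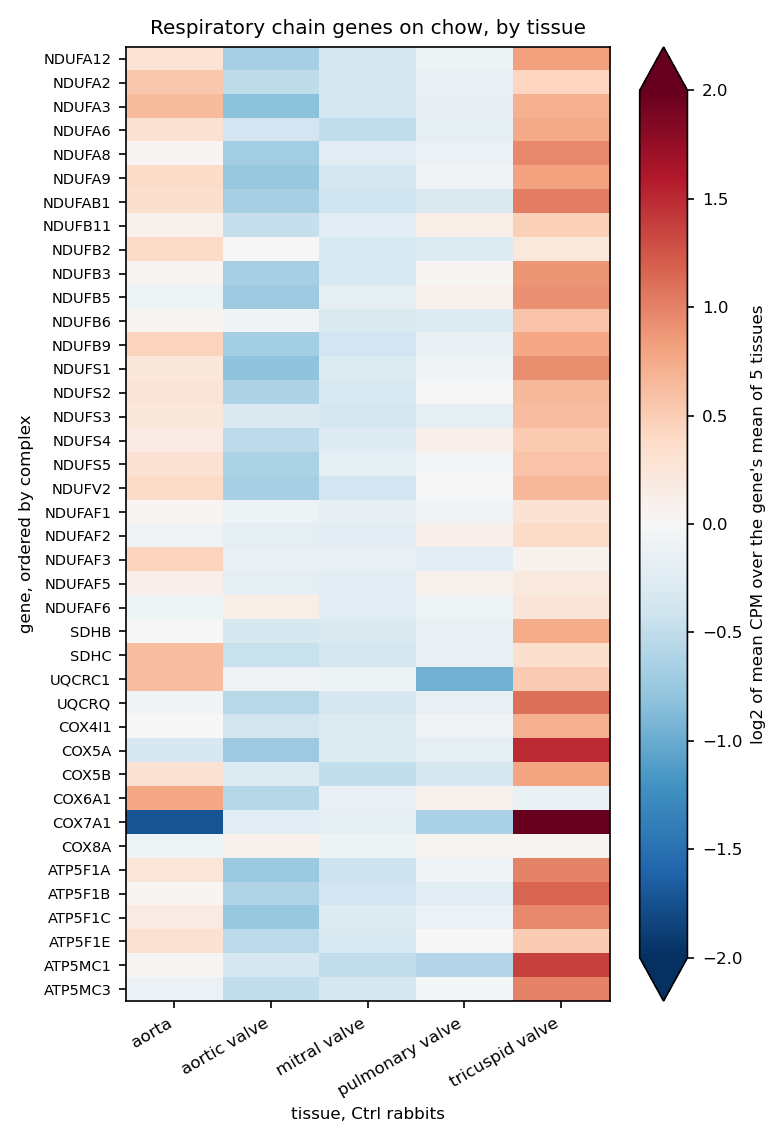
Respiratory chain genes in Ctrl rabbits of 5 tissues, 1 gene per line, ordered by complex. Colour gives the log2 ratio of the gene's mean CPM in a tissue to its mean over the 5 tissues. The tricuspid valve column is above 0 for nearly all genes, with COX7A1 farthest, and COX6A1 and COX8A lie near 0 there. COX4I2 and NDUFA4L2, at under 3 CPM, are not drawn.

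Against the mitral valve, 32 of 42 genes were higher in the tricuspid valve and none was lower (background 6.65% of genes), with a median log2 difference of 1.03 over the 42 genes and 0.00 over all genes. They included 18 of 19 complex I subunits, both complex II subunits and all 6 complex V subunits. ATP5MC1, which encodes the c subunit of the proton-driven ring of complex V, had 10.7, 14.1 and 19.2 CPM (lowest, median, highest) in the mitral and 16.5, 49.4 and 114 CPM in the tricuspid valve (log2 difference 1.86 ± 0.27 SE, adjusted p = 2.4e-07, edgeR). COX5B, a subunit of complex IV, differed by 1.28 ± 0.17 (adjusted p = 3.4e-08, edgeR) and SDHB, the iron-sulphur subunit of complex II, by 1.03 ± 0.15 (adjusted p = 3.7e-07, edgeR). All 5 complex I assembly factors, UQCRC1, NDUFB2, COX6A1, COX8A and NDUFA4L2 were not called. Against the pulmonary valve, 29 genes were higher in the tricuspid valve and none was lower (background 15.2%).

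The isoforms of complex IV followed different orders. COX7A1, the subunit form of heart and skeletal muscle (ENSOCUG00000013103), had 4.18, 30.4 and 75.1 CPM in the tricuspid valve, 2.22, 3.75 and 6.36 CPM in the mitral valve, 1.07, 1.66 and 8.83 CPM in the pulmonary valve, 0.987, 2.03 and 11.8 CPM in the aortic valve, and 0.699, 1.54 and 1.92 CPM in the aorta. It was higher in the tricuspid than in the mitral valve by 2.98 ± 0.61 on the log2 scale (adjusted p = 0.00027, edgeR), while the mitral, aortic and pulmonary valves overlapped. COX6A1 (ENSOCUG00000009873), the ubiquitous form of a subunit with a muscle counterpart, was highest in the aorta, at 60.1, 66.3 and 72.0 CPM, against 23.1, 35.6 and 50.4 CPM in the tricuspid valve. Its difference between tricuspid and mitral valve was 0.01 ± 0.15. COX8A, the ubiquitous form of the smallest subunit, differed by 0.15 ± 0.20 between the same valves, and its Ctrl medians lay between 31.2 and 36.6 CPM in all 5 tissues, with ranges that overlapped throughout.

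The aortic valve was lower than the aorta in 23 of 42 genes and higher in 1, COX7A1 (background 49.7%), with a median log2 difference of -0.68, and 0.12 over all genes. COX6A1 differed most clearly, by -1.34 ± 0.15 (adjusted p = 2.4e-13, edgeR), with 15.3, 24.8 and 40.8 CPM in the aortic valve and no overlap with the aorta. SDHC, a membrane anchor of complex II, differed by -1.07 ± 0.15 (adjusted p = 1.1e-09, edgeR). Without the low libraries 9 genes were lower and 1 was higher (background 30.9%), and the median was -0.42. The pulmonary valve was above the aortic valve in 13 genes and below it in 1, UQCRC1, a core subunit of complex III (background 47.3%). Leaving out the low libraries, 0 genes were higher by edgeR and 1 was lower (background 23.2%), while without the libraries nearest to another tissue 21 were higher and 1 was lower, near the share of all genes called (52.5%). Between the mitral and the aortic valve edgeR called 0 genes (background 12.2%), with a median difference of 0.22, and 10 genes were higher in the mitral valve without the libraries nearest to another tissue (17.7% of all genes called).

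In the tricuspid valve the level of most respiratory chain genes followed the heart muscle score among libraries of the same treatment. With treatment in the model, 33 of 41 tested genes rose with the score at an adjusted p-value under 0.05 and none fell (background 14.6%), with a median slope of 0.23 log2 units per unit of score, against -0.02 over all genes. The score itself ran from 2.37 to 10.4 over the 27 tricuspid libraries. COX7A1 had the steepest slope, at 0.75 ± 0.05 (adjusted p = 3.8e-12, edgeR), followed by ATP5MC1 at 0.47 ± 0.04 (adjusted p = 7.6e-09, edgeR). COX5A, ATP5F1B (the catalytic beta subunit of complex V) and UQCRQ (a small subunit of complex III) had slopes of 0.39, 0.37 and 0.32. COX6A1 had a slope of -0.01 ± 0.03 and COX8A of -0.08 ± 0.04, and the 5 assembly factors and NDUFB11 were not called either. Without L168 and L272, 34 of 41 genes rose with the score.

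The other tissues held less heart muscle, and fewer genes passed the test there. In the aorta 0 of 42 genes followed the score by edgeR (background 0.108%), with 2 at an unadjusted p under 0.05. In the aortic valve COX7A1 alone did, with a slope of 0.53 ± 0.12 (background 0.312%), a call that was lost without the low libraries. In the mitral valve COX7A1 and UQCRQ did, with slopes of 0.54 ± 0.07 and 0.11 ± 0.03 (background 1.22%), and in the pulmonary valve COX7A1 did, with a slope of 0.47 ± 0.06 (background 1.05%). At an unadjusted p under 0.05 the slope passed in 10 of 40 genes in the aortic, 10 of 41 in the mitral and 15 of 40 in the pulmonary valve. With the summed CPM of the list as the score, 4 genes each followed it in the mitral and the pulmonary valve (1.16% and 1.02% of all genes called). Whether slopes differ between tissues was not tested.

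**Figure D2:**
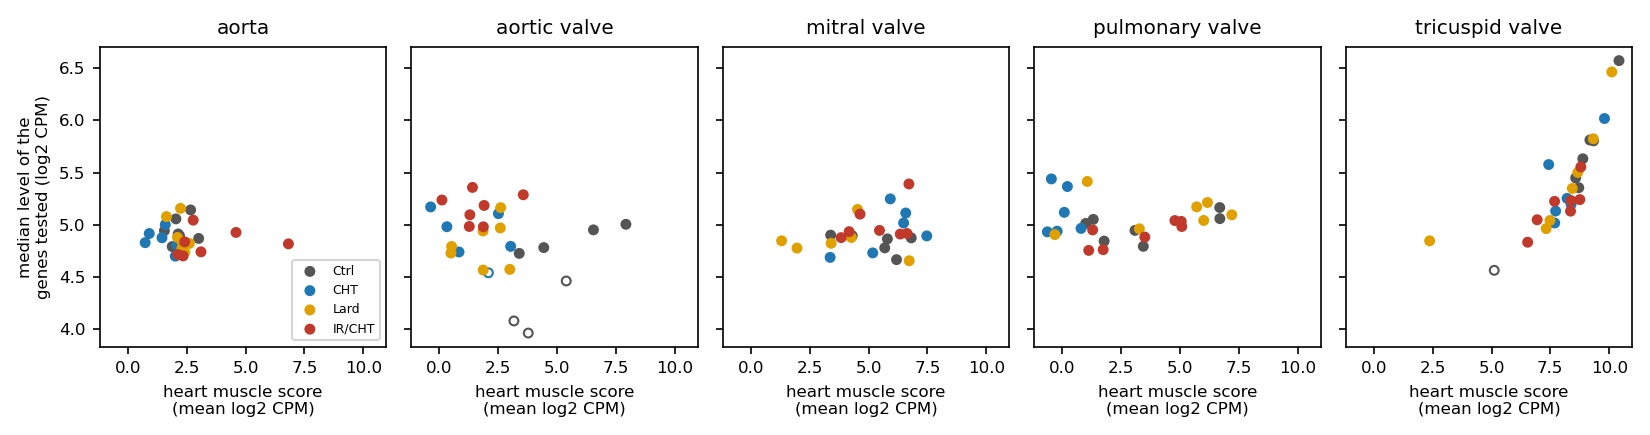
Median level of the tested respiratory chain genes in each library (log2 CPM) against its heart muscle score (mean log2 CPM), by tissue. Each point is 1 library, coloured by treatment, and open points are the 5 low libraries. In the tricuspid valve, where the score runs from 2.37 to 10.4, most points rise with it. L272, at a score of 2.37, lies at 4.85, above L168 with 4.56 at a score of 5.12. In the aortic valve the 3 open Ctrl points lie below all others.

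The most called genes in any treatment comparison were found in the aortic valve of IR/CHT against Ctrl rabbits, where 22 of 40 tested genes differed, 20 higher and 2 lower. The background was high, with 42.8% of all 15408 tested genes called and 21.1% called higher. The median log2 difference was 0.63 over the 40 genes and -0.06 over all genes, and 37 of 40 were positive. The summed level of the 42 genes was 1067, 1760 and 2554 CPM in Ctrl, 1618, 2151 and 2344 CPM in CHT, 1528, 1851 and 1981 CPM in Lard, and 2200, 2634 and 3362 CPM in IR/CHT. At an adjusted p under 0.05 alone, 26 genes were higher and 2 lower (background 48.3%).

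Much of this count rested on the 3 low Ctrl libraries. Without the low libraries 10 of 41 genes were called, 8 higher and 2 lower (background 39.1%), 1 of the 8 being NDUFA4L2, which passed the filter only through the IR/CHT libraries in which it was high. The median was 0.36, against -0.05 over all genes. Of these, 8 had also been called with all libraries, namely NDUFS3, NDUFA2, UQCRQ, UQCRC1, COX6A1 and COX8A, which were higher, and COX7A1 and NDUFAF5, which were lower. The 2 genes called only without them were NDUFAF3 and NDUFA4L2. At equal heart muscle score 27 genes were higher and 1 was lower (background 32.1%), and at equal score without the low libraries 12 were higher and 1 was lower (background 31.9%). The scores of the groups barely overlapped, at 3.17 to 7.92 in Ctrl and 0.11 to 3.56 in IR/CHT, so that the difference at equal score is an extrapolation. Within plate 2 alone, COX6A1, NDUFS3 and COX8A were higher and COX7A1 was lower, and no other gene was called (21.9% of all genes called). Within plate 1 alone, 23 genes were higher and 1 was lower (33.8% of all genes).

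Complex I takes up electrons from NADH, and 10 of its 19 subunits rose in IR/CHT, with none lower, beside 21.1% of all genes called higher. Without the low libraries 2 rose, beside 39.1% of all genes called in either direction. NDUFS3 (ENSOCUG00000006359), a core subunit of the arm that carries electrons, had 18.5, 23.9 and 34.7 CPM in Ctrl and 39.6, 49.0 and 55.2 CPM in IR/CHT. The 7 IR/CHT libraries lay above all Ctrl libraries. The log2 difference was 0.91 ± 0.16 (SE, adjusted p = 2.6e-05, edgeR), and 0.74 ± 0.18 without the low libraries (adjusted p = 0.0019, edgeR). NDUFA2 (ENSOCUG00000004237), an accessory subunit, had 9.65, 17.0 and 19.4 CPM in Ctrl and 21.0, 29.6 and 33.8 CPM in IR/CHT, again with no overlap. Its difference was 0.85 ± 0.17 (adjusted p = 0.00012, edgeR), and 0.68 ± 0.17 without the low libraries (adjusted p = 0.0028, edgeR).

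NDUFS5, an accessory subunit, also did not overlap between the groups, at 12.2 to 23.9 CPM in Ctrl and 24.0 to 36.5 CPM in IR/CHT (0.70 ± 0.17, adjusted p = 0.0014, edgeR), but it was not called without the low libraries (0.53 ± 0.18, adjusted p = 0.017, fold under 1.5). The other called subunits NDUFA3, NDUFA6, NDUFA8, NDUFA9, NDUFA12, NDUFB3 and NDUFB9 had log2 differences of 0.63 to 1.10, and of 0.20 to 0.55 without the low libraries, where none was called. NDUFA3 had 2.49, 8.25 and 18.4 CPM in Ctrl and 9.001, 24.8 and 26.6 CPM in IR/CHT. NDUFS1, the largest iron-sulphur subunit, had 13.4, 39.5 and 68.8 CPM in Ctrl and 32.5, 67.8 and 73.1 CPM in IR/CHT and was not called (0.68 ± 0.29, adjusted p = 0.056, edgeR).

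Of the assembly factors, which build complex I without being part of it, 1 of 5 was lower and none was higher. Of all genes, 21.7% were called lower and 21.1% higher. NDUFAF5 (ENSOCUG00000005419) was lower in IR/CHT, with 9.27, 13.6 and 18.1 CPM in Ctrl and 6.65, 9.43 and 10.9 CPM in IR/CHT (-0.59 ± 0.17, adjusted p = 0.0047, edgeR). The difference was -0.84 ± 0.17 without the low libraries, where the groups no longer overlapped, and -0.31 ± 0.22 at equal heart muscle score (adjusted p = 0.30, edgeR). Its call was lost in 11 of the 27 fits that left out 1 library, with a log2 difference of -0.67 to -0.50. NDUFAF3 was called only without the low libraries (0.72 ± 0.23, adjusted p = 0.013, edgeR), and NDUFAF1, NDUFAF2 and NDUFAF6 were not called with or without them.

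Complex II was represented by SDHB and SDHC, and neither was called. SDHB had 30.6, 36.8 and 53.8 CPM in Ctrl and 51.2, 55.3 and 69.6 CPM in IR/CHT, a difference of 0.48 ± 0.12 (adjusted p = 0.0014, edgeR) that stayed under the fold threshold. SDHC differed by 0.34 ± 0.18 (adjusted p = 0.12, edgeR). Both complex III subunits rose, beside 21.1% of all genes called higher. UQCRQ (ENSOCUG00000013627) had 17.5, 27.1 and 56.4 CPM in Ctrl and 60.1, 75.8 and 115 CPM in IR/CHT, with no overlap (1.24 ± 0.21, adjusted p = 1.8e-05, and 0.92 ± 0.21 without the low libraries, adjusted p = 0.00099, edgeR). UQCRC1 (ENSOCUG00000002041) had 30.2, 40.3 and 69.9 CPM in Ctrl and 68.8, 73.8 and 95.2 CPM in IR/CHT (0.82 ± 0.16, adjusted p = 0.00012, and 0.76 ± 0.18 without the low libraries, adjusted p = 0.0012, edgeR). The highest Ctrl library of UQCRC1 lay above the lowest IR/CHT library.

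In complex IV the ubiquitous forms COX6A1 and COX8A rose, as did COX5A, and the muscle form COX7A1 fell. COX6A1 had 15.4, 25.6 and 42.0 CPM in Ctrl and 46.5, 69.5 and 82.5 CPM in IR/CHT, with no overlap. Its difference was 1.35 ± 0.21 (adjusted p = 5.7e-06, edgeR), 0.95 ± 0.18 without the low libraries (adjusted p = 0.00016, edgeR) and 1.52 ± 0.29 at equal heart muscle score (adjusted p = 0.00024, edgeR). COX8A (ENSOCUG00000017388) had 30.5, 36.9 and 44.7 CPM in Ctrl and 42.8, 66.6 and 87.1 CPM in IR/CHT. It differed by 0.81 ± 0.20 (adjusted p = 0.0015, edgeR), and by 0.91 ± 0.18 without the low libraries (adjusted p = 0.00024, edgeR). COX5A had 3.34, 8.80 and 20.4 CPM in Ctrl and 7.56, 21.6 and 28.5 CPM in IR/CHT, and its call (1.08 ± 0.34, adjusted p = 0.010, edgeR) was lost without the low libraries (0.54 ± 0.29, adjusted p = 0.14, edgeR). COX5B and COX4I1, the ubiquitous form of COX4, differed by 0.56 ± 0.14 and 0.50 ± 0.13, under the fold threshold.

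COX7A1 had 1.01, 2.04 and 12.2 CPM in Ctrl and 0.0402, 0.169 and 0.577 CPM in IR/CHT, and the groups did not overlap. The difference was -4.26 ± 0.61 (adjusted p = 1.9e-06, edgeR), and -4.67 ± 0.63 without the low libraries (adjusted p = 3.2e-06, edgeR). As 5 of the 7 IR/CHT libraries held at most 3 counts of COX7A1, the size of the fold depends on the prior count. At equal heart muscle score the difference was -2.07 ± 0.60 (adjusted p = 0.0083, edgeR). The contractile heart muscle genes moved with it, with 12 of 13 tested genes lower and a median log2 difference of -4.26.

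In complex V, 5 of 6 genes rose with all libraries, beside 21.1% of all genes called higher. Without the low libraries 0 of 6 were called by edgeR (39.1% of all genes), and none passed an adjusted p of 0.05 either. ATP5F1A (ENSOCUG00000003967), the alpha subunit of the catalytic head, had 71.5, 195.3 and 386 CPM in Ctrl and 236.2, 396 and 454 CPM in IR/CHT. Its difference was 0.84 ± 0.28 (adjusted p = 0.015, edgeR), and 0.33 ± 0.20 without the low libraries (adjusted p = 0.19, edgeR). The 3 low libraries held the 3 lowest values of ATP5F1A in Ctrl. ATP5F1B, ATP5F1C and ATP5F1E, the beta, gamma and epsilon subunits of the head, differed by 0.61 ± 0.23, 0.85 ± 0.26 and 0.73 ± 0.24, and ATP5MC3, another c subunit gene, by 0.68 ± 0.18. ATP5MC1 differed by 0.54 ± 0.15, under the fold threshold. The call of ATP5F1B was also lost in 10 of the 27 fits that left out 1 library.

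**Figure D3:**
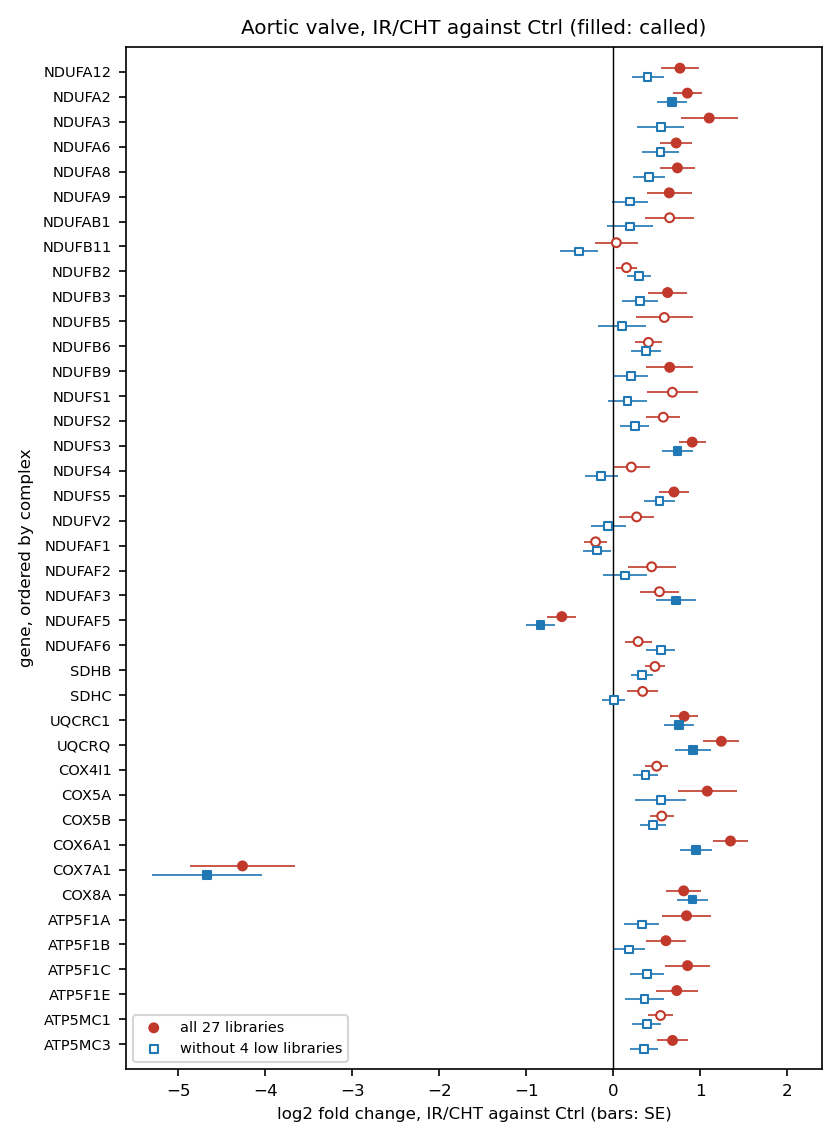
Log2 fold change of the 40 tested genes in the aortic valve, IR/CHT against Ctrl, ordered by complex, with bars of 1 SE. Circles are the fit of all 27 libraries and squares the fit without the 4 low libraries of this tissue, and filled symbols are called genes. Most squares lie nearer to 0 than their circles, with 20 genes called higher by circles and 7 by squares, and COX7A1 stands at -4.26 and -4.67.

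**Figure D4:**
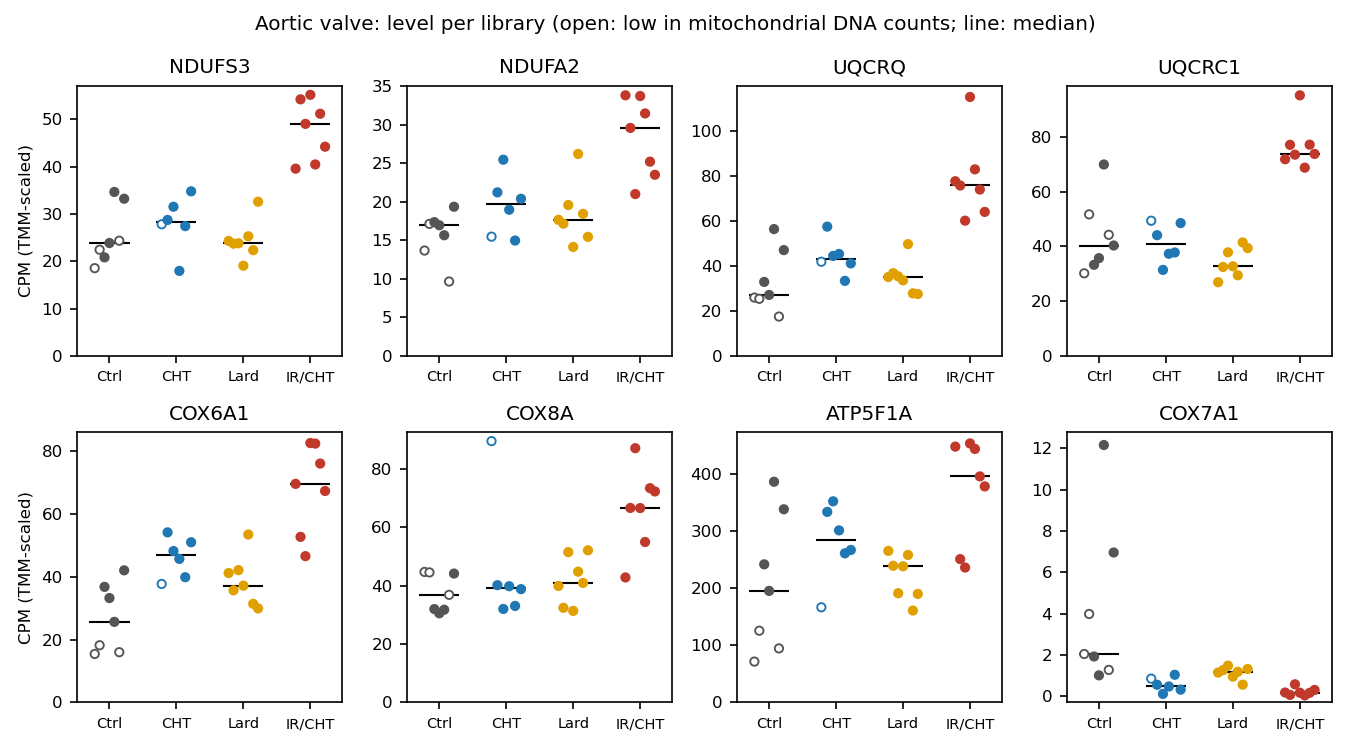
Level per library (CPM) of 8 genes in the aortic valve by treatment. Each point is 1 library, open points are the low libraries and lines are group medians. For NDUFS3, NDUFA2, UQCRQ and COX6A1 all 7 IR/CHT points lie above all Ctrl points, and for COX7A1 all lie below.

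Other marker and pathway lists were counted in the same comparison, in which 21.1% of all genes were called higher. The macrophage markers rose in 10 of 12 genes, with a median of 3.52, and their summed level went from 210, 526 and 665 CPM in Ctrl to 2656, 3106 and 3332 CPM in IR/CHT. The summed contractile heart muscle level went from 241.02, 924 and 13768 CPM to 54.5, 82.0 and 323 CPM, and 1 of its 14 genes was at 0 in all libraries. All 7 smooth muscle markers were called, 3 higher and 4 lower, with MYH11, the smooth muscle myosin, at 133, 196.6 and 522 CPM in Ctrl and 473, 881 and 2060.4 CPM in IR/CHT. Of 7 fibroblast and valve interstitial markers 1 was higher and 1 lower, with DCN, a collagen-binding proteoglycan, at 366, 1988 and 2598 CPM in Ctrl and 108, 469 and 653 CPM in IR/CHT. Of 8 endothelial markers 1 was higher, and of 4 tested fat cell markers 1 was higher and 3 lower. The 13 subunits encoded in mitochondrial DNA had a median of -0.97 with 0 called by edgeR, and -1.81 with 2 called lower without the low libraries. Their share of counts fell into a higher and a lower range among rabbits, and the higher range held 3 Ctrl and 2 IR/CHT rabbits. The 4 Ctrl libraries of the aortic valve left without the low ones included those 3, and the part of this split in the difference was not tested. Among mitochondrial lists, 5 of 13 citric acid cycle genes, 3 of 14 fatty acid oxidation genes and 9 of 19 further assembly factors were higher and none was lower, and 3, 5 and 8 were higher without the low libraries. Of 12 regulators of mitochondrial biogenesis 3 were higher and 2 lower. Outside the mitochondrion, 7 of 14 glycolysis genes were higher and 2 lower, 4 of 14 low-oxygen targets were higher, and 19 of 29 proteasome subunits were higher, or 14 without the low libraries. The mitochondrial ribosomal proteins were higher in 10 of 45 genes and the cytosolic ones higher in 1 and lower in 2 of 27. The shares of fatty acid oxidation genes and mitochondrial ribosomal proteins were near that of all genes. The part of these other lists and cell types in the respiratory chain result was not tested.

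IR/CHT rabbits had the diet and vitamin D2 of CHT rabbits and the irradiation in addition. In the aortic valve 4 of 40 genes were higher in IR/CHT than in CHT and none was lower (background 19.7%), and 11 were higher at an adjusted p under 0.05 alone (background 23.3%). The 4 were UQCRC1 (0.89 ± 0.17, adjusted p = 0.00032), NDUFS3 (0.77 ± 0.16, adjusted p = 0.0011), COX5B (0.63 ± 0.14, adjusted p = 0.0023) and UQCRQ (0.84 ± 0.21, adjusted p = 0.0055, all edgeR). In each the IR/CHT libraries lay above all CHT libraries. UQCRC1 had 31.4, 40.9 and 49.4 CPM in CHT, NDUFS3 17.97, 28.3 and 34.8 CPM, COX5B 65.8, 73.8 and 84.5 CPM, and UQCRQ 33.4, 43.2 and 57.5 CPM. The heart muscle scores of both groups were alike, at 1.401 and 1.63 on average, but all CHT libraries were on plate 1, and the higher range of mitochondrial DNA shares held 4 of 6 CHT and 2 of 7 IR/CHT rabbits. Within plate 1 alone 7 genes were higher and 1 was lower, near the share of all genes called (17.7%). In the fit without the low libraries, Ctrl ones included, COX5B fell under the fold threshold (0.56 ± 0.14), and COX8A was called, as was NDUFA4L2, again through the IR/CHT libraries that let it pass the filter. The macrophage markers were higher in 9 of 12 genes in this comparison.

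In the aortic valve of CHT against Ctrl rabbits COX6A1 was higher (0.78 ± 0.21, adjusted p = 0.013) and COX7A1 lower (-2.90 ± 0.59, adjusted p = 0.00094, both edgeR), with a background of 11.9%. COX6A1 had 37.7, 46.9 and 54.1 CPM in CHT and COX7A1 0.111, 0.513 and 1.04 CPM, and both overlapped with Ctrl. All CHT libraries were on plate 1. With plate as a covariate COX6A1 was not called (0.73 ± 0.23, adjusted p = 0.057, edgeR), and within plate 1 alone 0 genes were called by edgeR, with COX6A1 at 0.67 ± 0.24. When the low libraries were left out, only COX7A1 was called, and at equal heart muscle score neither was (adjusted p = 0.069 for COX6A1 and 0.54 for COX7A1, edgeR). The gene called at equal score was UQCRQ, which was higher (1.06 ± 0.27, adjusted p = 0.017, edgeR, background 5.52%). With the other heart muscle list behind the score 15 genes were higher (14% of all genes called), with summed CPM of the first list 10 were higher and 1 was lower (14.2%), and without the low libraries 0 were called by edgeR. The scores of CHT, at -0.37 to 3.03, did not overlap with those of Ctrl, so that these differences are extrapolations. The Lard diet changed 0 of 40 genes by edgeR (background 0.234%), while DESeq2 called 1.

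In the aorta the called genes were both low-oxygen isoforms and NDUFAF5. NDUFA4L2 and COX4I2 were higher in CHT and IR/CHT. NDUFA4L2 (ENSOCUG00000023263), which replaces its relative NDUFA4 at low oxygen, had 0, 0.112 and 0.455 CPM in Ctrl, 0.162, 1.92 and 7.27 CPM in CHT, 0, 2.52 and 4.36 CPM in Lard, and 0.769, 2.77 and 6.605 CPM in IR/CHT. The IR/CHT libraries lay above all Ctrl libraries, while 1 CHT library and 2 Lard libraries lay within the Ctrl range. The log2 difference from Ctrl was 4.13 ± 0.90 in CHT (adjusted p = 0.0010) and 4.16 ± 0.88 in IR/CHT (adjusted p = 0.00035, both edgeR). As 4 of the 7 Ctrl libraries held at most 3 counts of NDUFA4L2, and none more than 8, the size of the fold depends on the prior count. Its call in Lard was lost without any filter on low counts and in 9 of the 27 fits that left out 1 library, so that no size is given. The gene passed the filter through the treated libraries, and in fits of only CHT and Ctrl or only Lard and Ctrl it did not pass and was not tested. Without any filter the CHT and IR/CHT calls were kept (adjusted p = 0.0019 and 0.00071, edgeR).

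COX4I2 (ENSOCUG00000025424), the low-oxygen form of COX4, had 0.0621, 0.328 and 0.561 CPM in Ctrl, 0.314, 0.605 and 1.73 CPM in CHT, 0.223, 0.468 and 1.26 CPM in Lard, and 0.726, 0.915 and 1.76 CPM in IR/CHT. It was higher in CHT (1.47 ± 0.47, adjusted p = 0.021) and in IR/CHT (1.87 ± 0.46, adjusted p = 0.0014, both edgeR), where it did not overlap with Ctrl. In a fit of only CHT and Ctrl the gene did not pass the filter, without any filter both calls were kept (adjusted p = 0.039 and 0.0028, edgeR), and the CHT call was lost in 2 of the 27 fits that left out 1 library, with adjusted p up to 0.0997 by edgeR. Its usual counterpart COX4I1 had 261.05, 317 and 349 CPM in Ctrl and 257.7, 301 and 318 CPM in IR/CHT and was not called.

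In the aorta, 2 of 42 genes were called higher in CHT (background 19.4%), 1 in Lard (background 2.61%), the call of NDUFA4L2 that was lost without a filter, and 2 higher and 1 lower in IR/CHT (background 34.3%). The lower gene was NDUFAF5, with 11.9, 14.2 and 17.6 CPM in Ctrl and 7.98, 8.53 and 12.8 CPM in IR/CHT (-0.61 ± 0.15, adjusted p = 0.0016, edgeR). It fell under the fold threshold in 5 of the 27 fits that left out 1 library, with values of -0.70 to -0.55 over all 27, and with DESeq2 (-0.58). At an adjusted p under 0.05 alone, 5 genes were higher and 11 lower in IR/CHT (background 50.4%). The lower ones comprised 9 complex I subunits, SDHC (-0.51 ± 0.11, adjusted p = 0.00032, edgeR) and NDUFAF5. NDUFV2, a core subunit of complex I, had 33.2, 47.3 and 55.7 CPM in Ctrl and 23.1, 29.7 and 42.8 CPM in IR/CHT (-0.53 ± 0.14, adjusted p = 0.0029, edgeR). Between IR/CHT and CHT 0 genes were called by edgeR (background 0.596%).

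Levels of cell type markers in the aorta moved as well. In IR/CHT against Ctrl all 12 macrophage markers were higher, with a median of 4.11, 7 of 8 endothelial markers were higher, and 6 of 7 smooth muscle markers were lower, with a median of -1.15. Of the 15 low-oxygen targets 7 were higher and 1 was lower, and of 14 glycolysis genes 5 were higher and 1 was lower. The contractile heart muscle genes were higher in 7 of 12, and the score ran from 1.55 to 3.01 in Ctrl and from 2.12 to 6.82 in IR/CHT. Their summed level went the other way at the median, from 781, 942 and 1054 CPM in Ctrl to 236.9, 444 and 3245 CPM in IR/CHT. The IR/CHT library with the highest score, L566, had a profile nearest to the aortic valve. At equal heart muscle score NDUFA4L2 (4.09 ± 0.93, adjusted p = 0.0010) and COX4I2 (2.02 ± 0.50, adjusted p = 0.0024, both edgeR) were also called higher in IR/CHT. The limits given above for the filter and for low counts in Ctrl apply here too. No fit at equal score was made without the filter. Their relation to the macrophage, endothelial and smooth muscle markers was not tested.

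**Figure D5:**
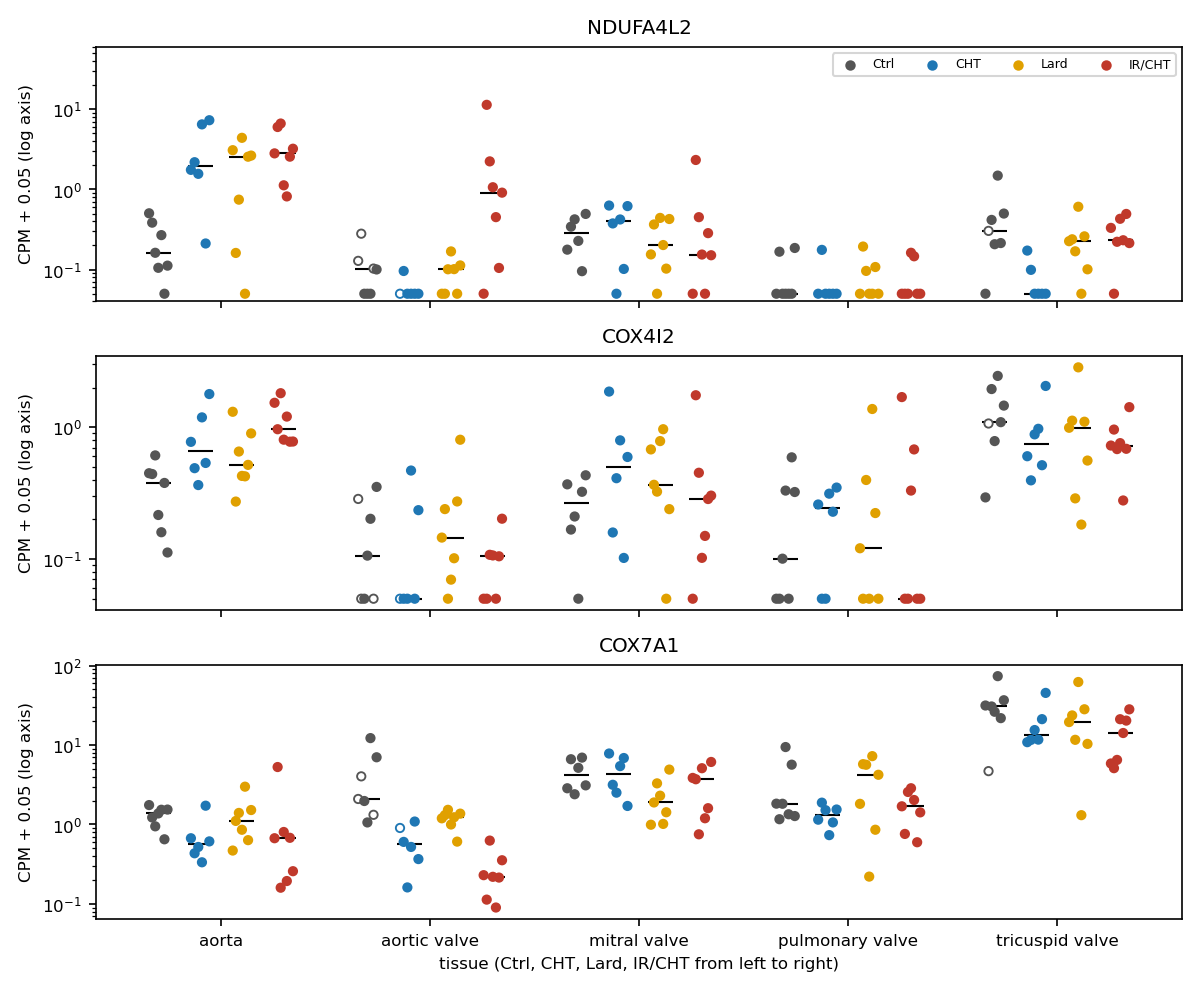
NDUFA4L2, COX4I2 and COX7A1 in each library (CPM + 0.05 on a log axis) by tissue, with Ctrl, CHT, Lard and IR/CHT from left to right, lines at the medians and open points for the low libraries. NDUFA4L2 is highest in the aorta of the treated groups, with 1 aortic valve library of IR/CHT at 11.3 CPM, COX4I2 is above Ctrl in the aorta of IR/CHT, and COX7A1 is highest in the tricuspid valve.

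In most valve libraries NDUFA4L2 was near the limit of detection. It had at most 0.231 CPM in Ctrl, CHT and Lard aortic valves, and 0, 0.863 and 11.3 CPM in IR/CHT, where 2 of 7 libraries held at most 3 counts. The gene did not pass the filter with all libraries. Without the low ones it passed through the IR/CHT libraries in which it was high, so that its calls against Ctrl and CHT there follow from the filter and no size is given. In the pulmonary valve no library exceeded 0.144 CPM. In the mitral and tricuspid valves it reached 2.29 and 1.44 CPM in 1 library each. COX4I2 had 0.243, 1.04 and 2.3996 CPM in Ctrl tricuspid valves and reached 2.79 CPM in Lard and was not called there in any treatment. Its Ctrl median was at most 0.217 CPM in the other valves.

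Genes whose level over the 27 aorta libraries was among the most like that of NDUFA4L2 were FBLN7, PKM, VEGFA and ACSM1, with Pearson correlations of log2 CPM of 0.916 to 0.926 across libraries. That of COX7A1 over the 27 tricuspid libraries was most like that of DHRS7C, LMO7, ANK3, GMPR and GOT1, with correlations of 0.967 to 0.978. COX4I2 in the tricuspid valve was most like KCNN2, ETFB, DCUN1D2, ECHS1 and TMEM11, at 0.738 to 0.786. These correlations were chosen from the highest of all tested genes, the libraries share the treatments and the spread in heart muscle, and no test was made of them.

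In the mitral valve 0 of 41 genes were called in any comparison by edgeR, against backgrounds of 5.62% in CHT, 0% in Lard and 17.7% in IR/CHT against Ctrl, and 0.189% in IR/CHT against CHT. The 0 in IR/CHT against Ctrl lay at the threshold. DESeq2 called 1 gene, higher (17.0% of all genes called). With edgeR 1 was called with DESeq2's size factors (17.5%), with no filter (10.4%), with only the 2 groups (16.9%) or with the mitochondrial DNA share as a covariate (16.2%). Within plate 1 alone 3 were called (12.1%), as were 3 without the libraries nearest to another tissue (14.1%). Leaving out 1 library gave 0 in 9 of 26 fits and 1 or 2 in the others. At an adjusted p under 0.05 alone 11 genes were higher in IR/CHT and none lower (background 26.8%), with a median of 0.24 over the 41 genes. NDUFA6, an accessory subunit of complex I, had 29.0, 34.1 and 37.8 CPM in Ctrl and 39.9, 50.8 and 60.4 CPM in IR/CHT, without overlap (0.57 ± 0.12, adjusted p = 0.0012, edgeR). UQCRQ had 35.4, 41.4 and 45.9 CPM in Ctrl and 47.0, 55.7 and 75.4 CPM in IR/CHT, also without overlap (0.50 ± 0.12, adjusted p = 0.0041, edgeR). NDUFA2, COX6A1, COX5B and NDUFS3 were among the others, at 0.37 to 0.44. The heart muscle score was 5.36 on average in Ctrl and 5.40 in IR/CHT, and the macrophage markers were higher in 10 of 12 genes.

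In the pulmonary valve 0 of 40 genes were called by edgeR in any comparison, against backgrounds of 0.159% in CHT, 0% in Lard and 0.706% in IR/CHT against Ctrl, and 0.0761% in IR/CHT against CHT. COX7A1 had 1.11, 1.77 and 9.37 CPM in Ctrl and 0.684, 1.28 and 1.83 CPM in CHT (-1.33 ± 0.61, adjusted p = 0.47, edgeR), beside the lower heart muscle score of CHT. The lowest adjusted p-value against Ctrl in IR/CHT was that of NDUFS1 (-0.27 ± 0.09, adjusted p = 0.16, edgeR), with 53.7, 62.8 and 79.6 CPM in Ctrl and 44.8, 52.6 and 59.1 CPM in IR/CHT.

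In the tricuspid valve 0 of 41 genes were called by edgeR with all libraries, against backgrounds of 0.163% in CHT, 0% in Lard and 0.231% in IR/CHT against Ctrl, and 0% in IR/CHT against CHT. NDUFAF1, an assembly factor, passed the adjusted p-value but not the fold threshold in IR/CHT, with 18.3, 21.5 and 26.3 CPM in Ctrl and 12.1, 14.7 and 16.9 CPM in IR/CHT, without overlap (-0.54 ± 0.12, adjusted p = 0.043, edgeR). The result for IR/CHT rested on L168. Without this library 10 genes were lower and none was higher (background 6.74%), with a median of -0.71, and 0.02 over all genes. They were 8 complex I subunits, ATP5F1C and ATP5MC3. NDUFS4, an accessory subunit, differed by -0.72 ± 0.18 (adjusted p = 0.026) and NDUFS1 by -0.89 ± 0.26 (adjusted p = 0.040, both edgeR). The contractile heart muscle genes had a median of -1.07 in the same fit with none called. At equal heart muscle score and with all libraries 0 of 41 genes were called (background 0.252%), as without the score, and the median moved from -0.59 to -0.31. Without L168 0 of 41 were called at equal score. The part of heart muscle in the lower levels without L168 was not tested.

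The treatment responses were compared between tissues in 1 model of all libraries, as differences of the log2 change against Ctrl at an adjusted p under 0.05. For IR/CHT, 28 of 42 genes responded more positively in the aortic valve than in the aorta and 1, COX7A1, more negatively (background 36.7%). COX6A1 differed by 1.47 ± 0.21 (adjusted p = 1.4e-08), NDUFS5 by 1.05 ± 0.22 (adjusted p = 8.1e-05) and NDUFA2 by 0.97 ± 0.21 (adjusted p = 0.00011, all edgeR). With the low libraries left out, 9 genes were more positive and 1 more negative (background 21.4%). Against the pulmonary valve, 26 genes were more positive in the aortic valve and COX7A1 was more negative (background 40.8%), and 9 and 2 without the low libraries (background 33.4%).

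Between the mitral and the aortic valve, the IR/CHT response differed in 3 of 42 genes (background 18.8%), namely COX7A1 (3.77 ± 0.89, adjusted p = 0.0012), COX6A1 (-0.91 ± 0.21, adjusted p = 0.0012, both edgeR) and NDUFA4L2, for which no size is given, since no Ctrl aortic valve library held more than 4 counts. With the rabbit as a block, 1 was more positive and 4 more negative in the mitral valve (22.9% of all genes called). With the heart muscle score as a covariate 21 were more negative and none was more positive (20.9% of all genes). Between the mitral and the tricuspid valve, 17 genes responded more positively in the mitral valve and none more negatively (background 8.21%), led by COX5B (1.02 ± 0.23, adjusted p = 0.00095, edgeR), and 29 did so without the low libraries (11.1% of all genes called).

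For CHT, 3 genes responded differently in aortic valve and aorta (background 10.3%). NDUFS5 (0.79 ± 0.23, adjusted p = 0.018) and COX6A1 (0.75 ± 0.22, adjusted p = 0.018) were more positive in the aortic valve (both edgeR). NDUFA4L2 was called more negative, but its aortic valve libraries held at most 4 counts in Ctrl and 1 in CHT, so that no size is given. With the rabbit as a block 6 were more positive and 1 more negative (19.9% of all genes called), with the heart muscle score as a covariate 14 were more positive and 1 more negative (11.7% of all genes), and without the low libraries 0 genes were called by edgeR. For CHT 0 genes were called by edgeR between the mitral and the aortic valve (background 0%), between the aortic and the pulmonary valve (background 5.11%), where the rabbit block called 1, and between the mitral and the tricuspid valve (background 2.20%).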

How the data were processed

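The authors deposited unnormalized read counts per Ensembl gene, in 1 table for each of 2 plates. Per the study's methods, an nf-core pipeline mapped the reads of stranded total RNA libraries to the rabbit genome OryCun2.0, and the submitters' processing notes name bcl2fastq 2.20. Genes at a few counts per library are measured with the least precision.

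The members and lists were chosen with earlier results of these data known, and the lists of ribosomal and proteasome genes after their values had been seen. Counts were tested with edgeR 4.0.16 in R 4.3.3 (filterByExpr, TMM, robust quasi-likelihood fits with limma 3.58.1), with Benjamini-Hochberg adjustment over all tested genes. Each tissue was fitted with its 4 treatments, and tissues were compared in 1 model of all libraries. Log2 CPM used a prior count of 2. The scripts were tested on simulated data. Named with values were the called genes with the smallest p, up to 20 in the comparison with most calls and up to 8 in the others, the first called gene of each complex, the isoform sets and the SDH genes. Other genes named, such as those with an adjusted p under 0.05 alone, were chosen after their values had been seen.

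Tissues of 1 rabbit are paired by the rabbit number in the labels, and residuals of the same rabbit had median correlations of 0.175 to 0.439 over 5 tissue pairs, against -0.0143 to 0.00712 between different rabbits. Alternatives were a block for the rabbit, DESeq2 1.42.0, its size factors, no filter, fits of 2 groups, plate, other heart muscle scores and leaving out libraries. Sequences of the genes were not used here. Of the genes most like NDUFA4L2, 1 is not reported here.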

Additional observations from a re-analysis of the deposited data

Results flagged for a closer look

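The heart muscle scores, the median levels of the tested respiratory chain genes and the named genes gave 136 groups of 4 to 10 libraries. In 8 cases 1 library stood far from the rest of its group, with L236 and L151 in more than 1 case. Chance alone meets this rule in about 1 of 20 groups. In the tricuspid valve the heart muscle score was 5.12 in the Ctrl library L168, against 8.58 or more in the other 6, and 2.37 in the Lard library L272, against 7.32 or more in the other 6. In the aortic valve UQCRQ was at 49.7 CPM in the Lard library L248 and at 115 CPM in the IR/CHT library L236, with 36.8 and 82.9 CPM in the next highest libraries. L236 also held 95.2 CPM of UQCRC1, with 77.2 CPM in the next highest library. COX5A was at 7.56 CPM in the IR/CHT library L194, with 19.8 CPM in the next lowest. The CHT library L151 of the aortic valve, which is one of the 5 low libraries, held 89.5 CPM of COX8A, with 40.2 CPM in the next highest, and 85.0 CPM of ATP5F1E, with 169.3 CPM in the next lowest.

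The response to treatment differed between tissues in edgeR's test of the difference, with the share of all genes called in brackets. For IR/CHT it differed in 29 of 42 genes between aortic valve and aorta (36.7%) and in 27 between aortic and pulmonary valve (40.8%). It differed in 17 between mitral and tricuspid valve (8.21%) and in 3 between mitral and aortic valve (18.8%). For CHT it differed in 3 genes between aortic valve and aorta (10.3%). Without the low libraries the first 3 numbers for IR/CHT were 10 (21.4%), 11 (33.4%) and 29 (11.1%), and that for CHT was 0 (3.54%).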

How the results depend on the processing

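No named gene with a call changed direction with DESeq2, its size factors, no filter, fits of 2 groups, plate, the mitochondrial DNA share as a covariate, or without the low libraries, those nearest to another tissue or any single library of the aorta and the aortic valve. Its direction under the others was not followed. The alternatives without libraries that stand apart, with the share of mitochondrial DNA counts and with summed CPM in the score were chosen after seeing the data. Whether an alternative's effect has a biological or a technical cause was not tested. Values that moved are numbers of called respiratory chain genes. A percentage in brackets is the share of all genes called in the same fit.

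In treatment comparisons, no filter on low counts gave 0 for Lard in the aorta and 1 for IR/CHT against Ctrl in the mitral valve. With only the 2 groups compared the numbers were 0 for CHT and 0 for Lard in the aorta, where both low-oxygen isoforms did not pass the filter, 1 for CHT in the aortic valve and 1 for IR/CHT in the mitral valve. An adjusted p under 0.05 alone gave 7 for CHT and 16 for IR/CHT in the aorta, 11 for IR/CHT against CHT in the aortic valve, 1 for CHT and 11 for IR/CHT in the mitral valve and 1 for IR/CHT in the tricuspid valve. DESeq2 called 1 gene for Lard in the aortic valve and 1 for IR/CHT in the mitral valve, and its size factors in edgeR gave 1 there too. Plate as a covariate gave 1 for CHT in the aortic valve. Plate 1 alone gave 0 for CHT and 8 for IR/CHT against CHT in the aortic valve, 3 for IR/CHT in the mitral and 2 in the tricuspid valve, and plate 2 alone 4 for IR/CHT against Ctrl in the aortic valve. The mitochondrial DNA share as a covariate gave 1 for IR/CHT in the mitral valve. Without the low libraries the numbers were 1 for CHT and 10 for IR/CHT in the aortic valve and 10 for IR/CHT in the tricuspid valve, which became 12 without L168 and L272. Without the libraries nearest to another tissue they were 8 for IR/CHT against CHT in the aortic valve, 3 for IR/CHT in the mitral and 2 in the tricuspid valve.

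At equal heart muscle score, the other heart muscle list gave 1 for CHT in the aorta, 15 for CHT in the aortic valve and 1 for IR/CHT in the mitral valve, and summed CPM gave 11 for CHT in the aortic valve. Without the low libraries 0 were called for CHT and 13 for IR/CHT in the aortic valve, and without the libraries nearest to another tissue 1 for CHT in the aorta and 2 for IR/CHT in the mitral valve. Genes that followed the score in the aortic valve numbered 3 with the other list and 0 with summed CPM, without the low libraries or without the libraries nearest to another tissue. With summed CPM 1 followed it in the aorta, 4 in the mitral and 4 in the pulmonary valve, and 1 did in the mitral valve without the libraries nearest to another tissue.

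On chow, leaving out the low libraries gave 10 genes between aortic valve and aorta and 1 between pulmonary and aortic valve, and leaving out the libraries nearest to another tissue gave 10 between mitral and aortic valve and 22 between pulmonary and aortic valve. For responses that differ between tissues, the rabbit block gave 7 for CHT between aortic valve and aorta, 1 for CHT between aortic and pulmonary valve and 5 for IR/CHT between mitral and aortic valve, and it moved no other number of calls by over 1.5 times. The heart muscle score as a covariate gave 15, 1 and 21 for the same comparisons. Without the low libraries 0 differed for CHT between aortic valve and aorta, and 10, 11 and 29 for IR/CHT between aortic valve and aorta, aortic and pulmonary valve, and mitral and tricuspid valve. Without the libraries nearest to another tissue, 10 differed for CHT between aortic valve and aorta (12.0% of all genes called). For CHT, 5 differed between aortic and pulmonary valve (7.30%) and 3 between mitral and tricuspid valve (1.65%) without these libraries. For IR/CHT, 7 differed between mitral and aortic valve (15.2%) and 27 between mitral and tricuspid valve (9.79%).

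Leaving out each library in turn gave 1 to 3 genes for CHT in the aorta, 0 to 1 for Lard, 2 to 5 for IR/CHT and 0 to 0 for IR/CHT against CHT. In the aortic valve the ranges were 2 to 4 for CHT, 0 to 0 for Lard, 17 (without the IR/CHT library L236) to 27 (without the Ctrl library L277) for IR/CHT and 3 to 7 for IR/CHT against CHT, with 7 without the CHT library L265. In the mitral valve they were 0 to 0 for CHT and Lard, 0 to 2 for IR/CHT, with 2 without the IR/CHT library L175, and 0 to 0 for IR/CHT against CHT. In the aorta the low values were reached without L572 for CHT, L553 for Lard and L551 for IR/CHT, and the high value for IR/CHT without L552.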

Other observations

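The share of counts on the 13 protein-coding genes of mitochondrial DNA fell into separate ranges among the rabbits, which no label explains. In the aorta it was 1.16% to 1.66% in 14 rabbits and 0.329% to 0.629% in the other 13. The same 14 rabbits were also above the other rabbits in the aortic valve (0.576% to 1.82% against 0.0389% to 0.394%), the mitral valve (0.811% to 1.53% against 0.162% to 0.495%), the pulmonary valve (0.889% to 1.61% against 0.244% to 0.383%) and the tricuspid valve (1.22% to 3.55% against 0.0373% to 0.943%). They were 3 Ctrl, 4 CHT, 5 Lard and 2 IR/CHT rabbits, so that the other 13 comprised 4, 2, 2 and 5. With the log2 of this share as a covariate, the number of called respiratory chain genes moved by over 1.5 times in 1 treatment comparison and stayed within that in the other 19.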
